A study of Mus musculus with 14 samples.

Results

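The genes described here are 10 messenger RNAs that mark the fields of the hippocampal pyramidal cell layer: Wfs1, Fibcd1, Pou3f1 and Mpped1 for field CA1, Rgs14, Amigo2, Pcp4 and Necab2 for field CA2, and Bok and Iyd for field CA3. They were chosen by symbol as known field markers, and are 10 of the 18735 genes that had a value in any library. All 10 were among the 16580 genes tested, and all 10 were named in the authors' 4 comparison tables of 81411 loci each.

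The hippocampus carries signals from the dentate gyrus through the pyramidal cells of CA3 and CA2 to those of CA1, which project out to the subiculum and cortex. The pyramidal cells of the fields share most of their genes and are told apart by a small set of field-restricted transcripts. KMT2D is a histone methyltransferase that acts on lysine 4 of histone H3 at enhancers and promoters, and loss of 1 copy causes Kabuki syndrome in people. TAK-418 inhibits LSD1, an enzyme that removes methyl groups from the same lysine.

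RNA was taken from the hippocampus of C57BL6 mice aged 30 days. The KMT2D+/+ mice are called wild type and the heterozygous KMT2D+/bGeo mice mutant. Mice received TAK-418 by oral gavage at 1 mg/kg/day in methylcellulose, or the methylcellulose vehicle, for 2 weeks from 2 weeks of age. Vehicle libraries numbered 3 from wild types and 3 from mutants, and TAK-418 libraries 5 from wild types and 3 from mutants. The series' design text gives 3 to 4 mice per group, and nothing ties each library to 1 mouse, so p-values measure the spread between these libraries. The trap allele is carried by every cell, and the tissue held all hippocampal fields together, so fewer cells of a field and less RNA per cell cannot be told apart.

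Each library was deposited as a set of assembled transcripts with an abundance per transcript length, and the values below are the sums per gene after scaling the libraries to each other. Relative depth, read from the spacing of low values, lay between 35.1 and 59.98 M except for replicate 1 of the treated wild types, at 167.6 M. The share of assembled transcripts assigned to a gene was 86.41% to 90.22% in treated wild types 2, 4 and 5 and 87.35% in wild-type vehicle replicate 3. In all other libraries it was 78.22% to 82.96%, and what this difference adds to the comparisons was not tested. Kmt2d itself stood at 14.1 ± 0.234 (SD, n = 3) in wild-type vehicle, 11.97 ± 2.15 (n = 3) in mutant vehicle, 15.3 ± 2.38 (n = 5) in wild-type TAK-418 and 12.46 ± 2.74 (n = 3) in mutant TAK-418 libraries. The group ranges overlapped, and where in the gene the trap sits was not used here, so these whole-gene values check the genotype labels only in part. The 4 markers of pyramidal neurons and the 8 of dentate granule cells had a value in all 14 libraries. The summed level of 5 choroid plexus genes ran from 15.5 to 6490 and was highest in wild-type vehicle replicate 3 (6490) and mutant vehicle replicate 1 (5045), and what this adds to the comparisons was not tested.

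Levels of the field genes, averaged over the 14 libraries, are given on the scaled abundance per length, with Pcp4 the highest at 184.9. Pcp4 was above the next gene in 14 of 14 libraries. Bok (70.8) and Mpped1 (68.7) could not be ordered, since Bok was the higher in 8 of 14 libraries. Necab2 (63.9) lay below Mpped1 in 10 of 14 libraries and above Fibcd1 (53.5) in all 14. Fibcd1, Rgs14 (52.4) and Wfs1 (50.4) followed, each above the next in 10 of 14 libraries except that Wfs1 was above Iyd (5.51) in all 14. With the highest single transcript in place of the sum, Mpped1 (55.1) averaged below Necab2 (63.9) and Rgs14 (48.3) below Wfs1 (49.2). Amigo2 averaged 3.24 with transcripts that share its annotated intron and 18.8 with all of its splice forms, assigned by exon overlap, against 5.51 and 4.86 for Iyd by the same counts, so their order depends on the count. Pou3f1 lay between 1.02 and 2.05 in 13 libraries and at 24.4 in 1, and is not placed in the order. The first 7 genes lay above at least 87.8% of the genes tested, while Iyd lay above 40.4%.

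The authors' deposited tables, averaged over groups, put the same 4 genes at the top, Pcp4, Bok, Mpped1 and Necab2. They place Rgs14 above Fibcd1, and Amigo2 and Pou3f1 above Iyd. In those tables the wild-type vehicle FPKM was 12.8 for Amigo2 and 15.1 for Pou3f1 against 5.80 for Iyd. Of the 10 genes, 4 sit in a locus that reaches well past the annotated gene or merges with another gene: Pou3f1 (chr4:124522978-124660655), Amigo2 (chr15:97244125-97385680), Iyd (chr10:3514870-3571363) and Pcp4 (chr16:96361668-96525793, merged with Igsf5). The FPKM of these loci is therefore not that of the gene's exons alone.

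**Figure D1:**
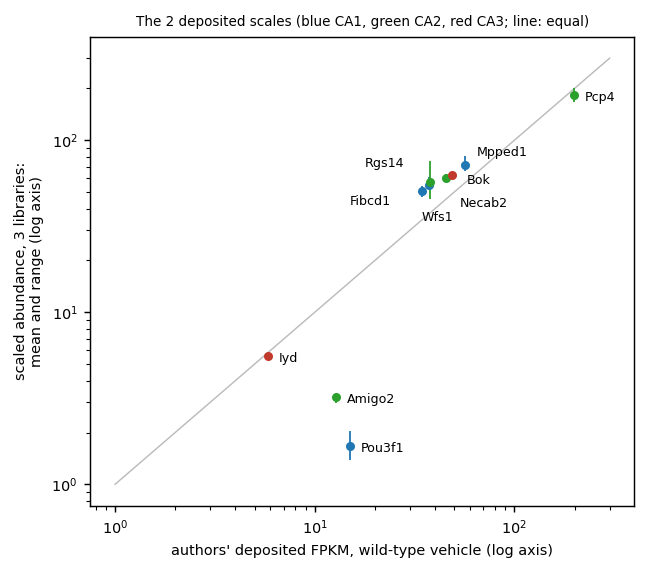
Group FPKM from the authors' deposited table (x, log axis) against scaled abundance (y, log axis; point, mean of the 3 wild-type vehicle libraries; bar, their range) for the 10 field genes. The other 8 genes lie near the line of equal values, while Amigo2 (3.21 against 12.8) and Pou3f1 (1.66 against 15.1) lie well below it; the Amigo2 value counts only transcripts that share the annotated intron.

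Wfs1 encodes wolframin, a membrane protein of the endoplasmic reticulum with a role in calcium handling, and is a widely used marker of CA1 pyramidal cells. The gene lies at chr5:36966104-36989205 on the minus strand (GRCm38), and all 8 exons were joined in a full annotated chain in each of the 14 libraries. Its scaled abundance in replicates 1 to 3 was 51.1, 52.2 and 61.4 in wild-type vehicle and 53.0, 53.3 and 62.8 in mutant vehicle libraries. With TAK-418 it was 47.4, 46.8, 49.7, 40.6 and 50.5 in the 5 wild types and 45.0, 44.8 and 46.9 in the 3 mutants. Every TAK-418 library thus lay below every vehicle library, in both genotypes, and the vehicle libraries of the 2 genotypes overlapped. The highest treated library (50.5) and the lowest vehicle library (51.1) were close together, and the separation depended on the scaling. Before scaling, mutant vehicle replicate 1 (factor 0.845) lay below mutant TAK-418 replicate 3 and wild-type TAK-418 replicates 1, 2, 3 and 5. Wild-type vehicle replicate 1 then lay below wild-type TAK-418 replicates 3 and 5, so treated and vehicle libraries overlapped within each genotype. How many of all genes separate treated from vehicle libraries after scaling was not counted.

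Fibcd1 encodes a cell-surface receptor with a fibrinogen-like domain that binds acetylated sugars such as chitin. It lies at chr2:31813290-31846005 on the minus strand, and 1 transcript with all 7 exons was assembled in each library. Values were 53.9, 51.6 and 46.5 in wild-type vehicle, 54.3, 48.4 and 51.7 in mutant vehicle, 60.6, 54.2, 55.4, 57.2 and 58.4 in wild-type TAK-418, and 54.9, 52.7 and 48.7 in mutant TAK-418 libraries. The treated wild types were the highest group, all above the vehicle wild types, and their range overlapped that of the treated mutants.

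Mpped1 encodes a metallophosphoesterase domain protein found mainly in forebrain neurons. It lies at chr15:83779467-83858494 on the plus strand. Values were 66.2, 80.6 and 69.2 in wild-type vehicle, 65.8, 71.3 and 65.2 in mutant vehicle, 76.5, 71.9, 74.5, 67.3 and 71.6 in wild-type TAK-418, and 63.2, 53.1 and 65.5 in mutant TAK-418 libraries. No treated mutant reached the lowest treated wild type, while treated and vehicle mutants overlapped. With the highest single transcript in place of the sum, treated mutants and treated wild types overlapped.

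Mpped1 was also the field gene with a recurrent choice between 2 annotated forms. An internal exon of 226 bases at chr15:83836273-83836498, wholly coding in the 3 annotated transcripts that join it to both neighbours, was left out of some transcripts. Its length is not a multiple of 3, and the 1 annotated transcript with the skipping junction is classed as subject to nonsense-mediated decay. The exon and the 3 junctions are printed because they distinguish the forms; in the junctions, capitals mark the bases that belong to the exon. They were read from the GENCODE M21 transcripts (GRCm38, plus strand).
Mpped1 junction into the exon: atgaatggctggGCAGCCTGCCCT
Mpped1 junction out of the exon: CGGCTCCCCGTGgcagccctggtt
Mpped1 junction that skips the exon: atgaatggctgggcagccctggtt
Mpped1 exon: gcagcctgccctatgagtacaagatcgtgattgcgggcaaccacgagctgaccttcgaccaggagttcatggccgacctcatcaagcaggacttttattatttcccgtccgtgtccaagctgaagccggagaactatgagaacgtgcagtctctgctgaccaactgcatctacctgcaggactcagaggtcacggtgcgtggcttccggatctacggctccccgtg

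The skipping form was assembled in 13 of 14 libraries. Its share of the abundance of both forms was 28.5%, 27.3% and 5.09% in wild-type vehicle and 19.3%, 22.8% and 14.8% in mutant vehicle libraries. With TAK-418 it was 19.1%, 19.2%, 0%, 13.1% and 14.3% in wild types and 17.4%, 20.7% and 25.3% in mutants. Group means were 20.3% ± 13.2 (SD, n = 3), 18.9% ± 4.02 (n = 3), 13.1% ± 7.84 (n = 5) and 21.1% ± 4.00 (n = 3), and all group ranges overlapped. These shares rest on the assembler's division of reads between forms, not on counted junction reads.

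Pou3f1, also called Oct6 or SCIP, encodes a POU-domain transcription factor and is the only gene of the 10 with a single exon, at chr4:124656807-124660655 on the plus strand. Values were 1.56, 2.05 and 1.39 in wild-type vehicle, 1.35, 1.45 and 1.11 in mutant vehicle, and 1.24, 1.19, 1.54, 1.24 and 1.09 in wild-type TAK-418 libraries. In mutant TAK-418 libraries they were 1.4995, 1.02 and 24.4, so 1 library stood far above the other 13. That library was the only 1 in which the Pou3f1 transcript overlapped a spliced transcript. Across other single-exon genes in wild-type vehicle libraries, the ratio of abundance to the authors' FPKM had a median of 0.0484 (53 genes) where no spliced transcript covered the same bases and 1.17 (24 genes) where one did, against 1.28 for genes with several exons. The authors' deposited tables gave a Pou3f1 locus FPKM of 15.1 in wild-type vehicle, 13.0 in mutant vehicle, 13.98 in wild-type TAK-418 and 13.0 in mutant TAK-418, with no high value in the last group. Whether the Pou3f1 values share the scale of the other 9 genes was not tested, and its average over mutant TAK-418 libraries rests on 1 of them.

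Pcp4 encodes a small calmodulin-binding protein, PEP-19, and is strong in CA2 and also in dentate granule cells. It lies at chr16:96467606-96525793 on the plus strand, and 1 transcript with the annotated chain was assembled in each library. Values were 200.2, 181.9 and 166.2 in wild-type vehicle, 195.8, 183.1 and 169.5 in mutant vehicle, 190.2, 191.7, 192.5, 167.2 and 192.0 in wild-type TAK-418, and 188.6, 186.9 and 182.9 in mutant TAK-418 libraries. Group means lay between 182.8 and 186.7, and all group ranges overlapped. Over all 7 contrasts its log2 difference stayed between -0.0044 and 0.03.

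Necab2 encodes a neuronal EF-hand calcium-binding protein. It lies at chr8:119446719-119472640 on the plus strand and was assembled as 1 full chain of 13 exons in every library. Values were 64.0, 59.2 and 58.3 in wild-type vehicle, 60.9, 66.8 and 69.8 in mutant vehicle, 64.3, 60.4, 67.3, 66.1 and 62.0 in wild-type TAK-418, and 64.7, 62.5 and 68.3 in mutant TAK-418 libraries. All group ranges overlapped, and its coefficient of variation over the 14 libraries, 5.49%, was below the median of 6.63% for 1479 genes within 1.5-fold of its level.

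Rgs14 encodes a scaffold protein that speeds the GTP hydrolysis of inhibitory G proteins and is known in CA2 for limiting synaptic potentiation. It lies at chr13:55369732-55384687 on the plus strand. Values were 75.3, 50.9 and 45.7 in wild-type vehicle, 53.1, 49.2 and 53.2 in mutant vehicle, 47.6, 48.6, 55.0, 51.3 and 51.5 in wild-type TAK-418, and 49.8, 51.2 and 51.8 in mutant TAK-418 libraries. The first library stood above the other 13, and in it the gene was assembled mainly as a piece of 9 exons (36.0 before scaling) and a piece of 7 exons (35.2), whose values were summed. With the highest single transcript in place of the sum that library stood at 36.8 and the other 13 at 43.8 to 54.4.

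Amigo2 encodes a cell adhesion protein with leucine-rich repeats and an immunoglobulin domain, and is used as a marker of CA2. It lies at chr15:97244125-97247287 on the minus strand and has 2 exons, with the whole coding part inside the second. The annotated intron is chr15:97246598-97246940. In all 14 libraries other transcripts spliced to the same acceptor from a donor that is not annotated, 32 bases further upstream (intron chr15:97246598-97246972). The donors and the acceptor are printed because the choice decides which transcripts are counted; capitals mark the GT that begins and the AG that ends each intron (GENCODE M21, GRCm38, minus strand, chr15:97246931-97246950, chr15:97246963-97246982 and chr15:97246588-97246607).
Amigo2 annotated donor: ggctggctaaGTatttccgt
Amigo2 unannotated donor: tcccagcgctGTgagtggtc
Amigo2 shared acceptor: ttgttaccAGattggtggga

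The unannotated donor held the larger part of the abundance that used either donor. Its share of the 2 was 84.4%, 79.4% and 81.6% in wild-type vehicle, 83.2%, 84.3% and 84.9% in mutant vehicle, 74.96%, 84.0%, 89.1%, 74.8% and 63.9% in wild-type TAK-418, and 79.5%, 88.2% and 76.8% in mutant TAK-418 libraries. The mean was 80.6% ± 6.55 (SD, n = 14), and the group ranges overlapped. In 3 treated wild types, replicates 1, 4 and 5, the assembled transcripts also held an unannotated intron of 30169 bases to a further exon upstream, which was assembled in no library of the other 3 groups. In replicates 1 and 4 the abundance with this intron, 8.96 and 11.8 before scaling, was that of both donor forms together. In replicate 5 it was 20.0, of which the unannotated donor held 5.53 and the annotated donor 3.12, so most of it used neither donor and is outside the share of 63.9%.

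**Figure D2:**
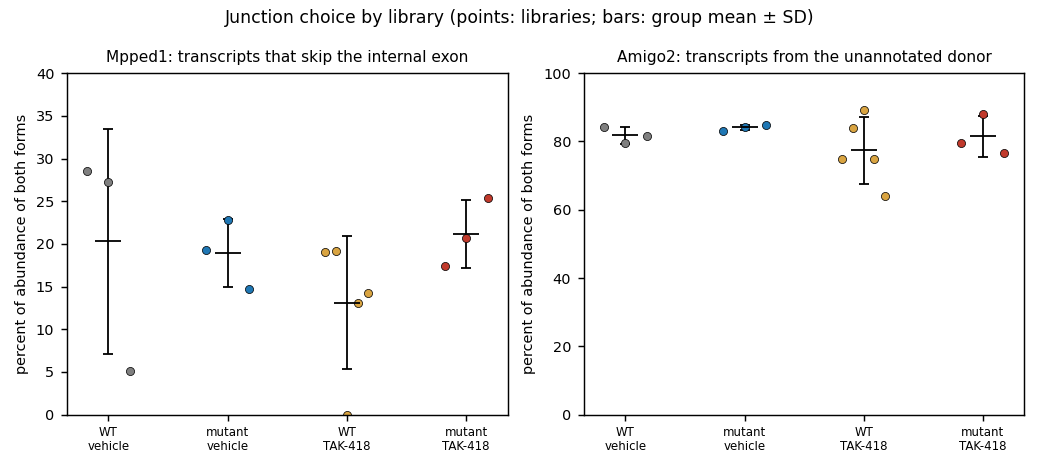
Share of the abundance of 2 alternative forms, in percent, by library (points) with group mean ± SD (bars). Mpped1 transcripts that skip the internal exon made up 0% to 28.5%, and the unannotated donor 63.9% to 89.1% of the Amigo2 abundance that used either donor, with overlapping groups for both genes.

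Because assignment required a shared annotated intron, the Amigo2 values held only the form with the annotated donor. They were 3.23, 3.41 and 2.98 in wild-type vehicle, 4.01, 3.99 and 3.33 in mutant vehicle, 2.31, 2.65, 2.05, 2.88 and 2.94 in wild-type TAK-418, and 4.39, 2.64 and 4.61 in mutant TAK-418 libraries. With assignment by exon overlap, which counts every form, they were 20.7, 16.6 and 16.2, then 23.8, 25.4 and 22.0, then 9.23, 16.6, 18.9, 11.4 and 18.8, and last 21.4, 22.3 and 19.8, in the same order of groups. On that count the vehicle mutants lay above the vehicle wild types and the treated mutants above the treated wild types, without overlap. Before scaling, mutant vehicle replicate 1 lay below wild-type vehicle replicate 1, so the vehicle groups overlapped.

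Bok encodes a member of the BCL-2 family that can open the outer mitochondrial membrane, and in hippocampus its RNA is strongest in CA3. It lies at chr1:93685660-93695764 on the plus strand, and a full annotated chain was assembled in all 14 libraries. Values were 63.9, 65.2 and 59.4 in wild-type vehicle, 69.5, 77.4 and 73.5 in mutant vehicle, 67.2, 66.1, 77.5, 74.5 and 67.2 in wild-type TAK-418, and 72.8, 77.7 and 79.4 in mutant TAK-418 libraries. After scaling, the vehicle wild types were the lowest group, and none of their libraries reached any library of the other 3 groups. This separation depended on the scaling. Before scaling, mutant vehicle replicate 1 (factor 0.845) lay below every vehicle wild type. How many of all genes set 1 group apart from the other 3 was not counted.

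Iyd encodes iodotyrosine deiodinase, known for salvaging iodide in the thyroid, and marks CA3 in hippocampus. It lies at chr10:3540240-3554877 on the plus strand. Values were 5.67, 5.42 and 5.54 in wild-type vehicle, 4.14, 4.62 and 5.51 in mutant vehicle, 4.35, 7.56, 7.03, 5.33 and 4.59 in wild-type TAK-418, and 6.41, 5.34 and 5.59 in mutant TAK-418 libraries. The treated wild types spread from the second lowest to the highest value of all 14 and overlapped every group. Its transcripts ran past the annotated gene in most libraries: 13 of 14 held a form that spliced from within the gene to exons downstream of it, with up to 20.7% of the Iyd abundance, and 9 of 14 held exons upstream of it. In wild-type TAK-418 replicates 1, 4 and 5 and wild-type vehicle replicate 3, all of the Iyd abundance was on forms with upstream exons.

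**Figure D3:**
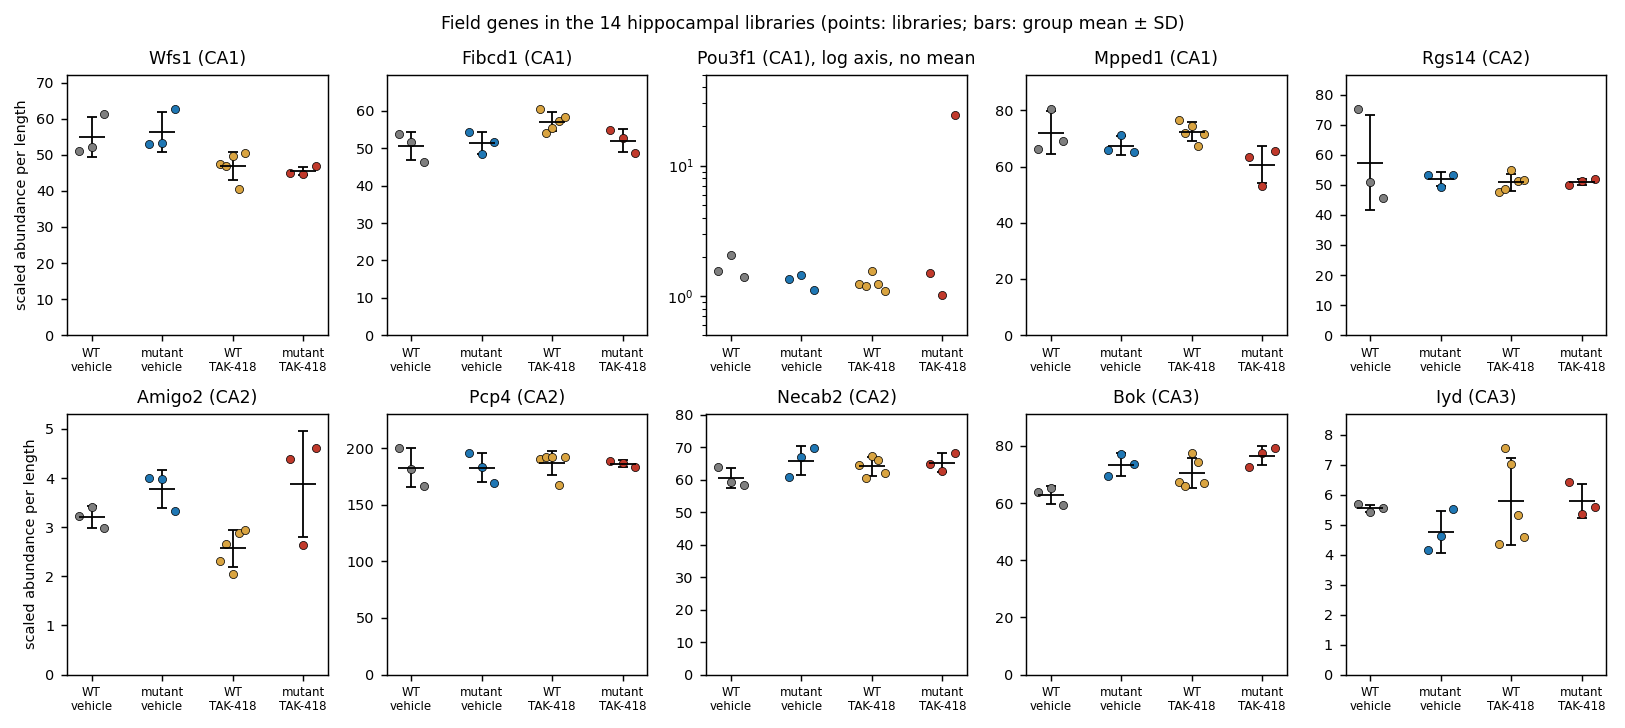
Scaled abundance per length of the 10 field genes by group (points, libraries; bars, mean ± SD; Pou3f1 on a log axis without means). Wfs1 is at 40.6 to 50.5 in treated and 51.1 to 62.8 in vehicle libraries, and the wild-type vehicle libraries are the lowest group for Bok at 59.4 to 65.2.

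The first comparison, mutant against wild-type mice under vehicle, asked what the Kmt2d allele does without drug. Bok had the largest absolute log2 difference of the 10 genes, 0.22 ± 0.07 (SE), or 1.17-fold, with the 3 mutants at 73.5 ± 3.93 (SD) and the 3 wild types at 62.8 ± 3.01. Its unadjusted p in limma was 0.00711 and its adjusted p 0.698. None of the 10 genes passed an adjusted p of 0.05, where 0% of the 16580 genes did, and 1 passed an unadjusted p of 0.05, where 5.47% of all genes did. Bok was also the only one of the 10 whose groups did not overlap, which held for 8.9% of all genes. With all Amigo2 forms counted, the Amigo2 groups did not overlap either. Before scaling, the groups overlapped both for Bok and for Amigo2 with all forms counted. Among the others, Amigo2 gave 0.18 ± 0.16, or 0.40 ± 0.22 with all of its forms counted, Necab2 0.12 ± 0.06, Wfs1 0.04 ± 0.09, Mpped1 -0.09 ± 0.09 and Iyd -0.19 ± 0.17. The 95% intervals of the 10 genes reached from ±0.13 for Necab2 to ±1.505 for Pou3f1.

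Treated against vehicle mutants showed whether 2 weeks of TAK-418 moved the field genes in KMT2D+/bGeo mice. Wfs1 stood at 45.6 ± 1.18 (SD, n = 3) after TAK-418 and 56.4 ± 5.57 (n = 3) after vehicle. The log2 difference was -0.30 ± 0.09 (SE), or 0.813-fold, with an unadjusted p of 0.00732 and an adjusted p of 0.809 in limma. It was the 1 gene of the 10 at an unadjusted p under 0.05, against 4.4% of all genes, and the 1 whose groups did not overlap, against 8.18%. Before scaling, the Wfs1 groups overlapped. None of the 10 passed the adjusted threshold, as did 0.00603% of all genes. Mpped1 gave -0.16 ± 0.09, Fibcd1 0.02 ± 0.07, Amigo2 0.01 ± 0.16, Bok 0.06 ± 0.07 and Iyd 0.24 ± 0.17. The Pou3f1 value of 1.13 ± 0.69 rested on 1 library and was -0.03 without it.

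In wild types, TAK-418 against vehicle set 5 libraries against 3. Wfs1 was again the lower after TAK-418, at 47.0 ± 3.87 (SD, n = 5) against 54.9 ± 5.64 (n = 3), with a log2 difference of -0.22 ± 0.08 (SE) and an adjusted p of 0.481 in limma. Fibcd1 stood at 57.2 ± 2.53 against 50.7 ± 3.80, a log2 difference of 0.17 ± 0.06 with an adjusted p of 0.454, and Bok at 70.5 ± 5.15 against 62.8 ± 3.01, a log2 difference of 0.16 ± 0.06 with an adjusted p of 0.482. These 3 genes passed an unadjusted p of 0.05, where 8.46% of all genes did, and none passed the adjusted threshold, where 0% of all genes did. The groups did not overlap for these 3 genes and for Amigo2, at -0.24 ± 0.14, which makes 4 of 10 against 6.33% of all genes. Amigo2 groups overlapped when all of its forms were counted, and those of Wfs1 and Bok overlapped before scaling. Rgs14 gave -0.14 ± 0.12 with its 2 pieces summed, but 0.07 without wild-type vehicle replicate 1 and 0.17 with the highest transcript alone.

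Mutants and wild types were also compared under TAK-418. Mpped1 stood at 60.6 ± 6.56 (SD, n = 3) in mutants and 72.4 ± 3.46 (n = 5) in wild types, a log2 difference of -0.26 ± 0.08 (SE) with an adjusted p of 0.913 in limma. It was the 1 gene of the 10 whose groups did not overlap, against 4.6% of all genes. With the highest single transcript in place of the sum, its groups overlapped, at 34.4 to 52.4 in mutants and 47.8 to 73.7 in wild types. Over the alternative settings the Mpped1 difference ran from -0.42 to -0.11. The authors' deposited table gave 52.2 in mutants and 55.2 in wild types, a log2 fold change of -0.08 (q = 0.843). With all Amigo2 forms counted, the Amigo2 groups did not overlap either. Amigo2 gave 0.43 ± 0.14 and Fibcd1 -0.13 ± 0.06, and with Mpped1 these made 3 genes at an unadjusted p under 0.05, against 4.95% of all genes. None of the 10 passed the adjusted threshold, as did 0.0121% of all genes. Counting all Amigo2 forms gave a log2 difference of 0.52. The value of 1.16 for Pou3f1 became -0.0048 without the mutant TAK-418 library that stood apart.

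Averages over both treatments or both genotypes used all 14 libraries in each contrast. For the genotype, Bok gave 0.17 ± 0.05 (adjusted p = 0.631 in limma), Amigo2 0.31 ± 0.11 and Mpped1 -0.17 ± 0.06, which were the 3 genes at an unadjusted p under 0.05, against 5.86% of all genes. For TAK-418, Wfs1 gave -0.26 ± 0.06, or 0.836-fold, with an unadjusted p of 0.00132 and an adjusted p of 0.327, the lowest adjusted p of any field gene in the 7 contrasts. Bok gave 0.11 ± 0.05, and these 2 were the genes at an unadjusted p under 0.05, against 8.31% of all genes. None of the 10 passed the adjusted threshold in either average, as did 0.00603% of all genes for genotype and 0.0121% for TAK-418.

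The interaction, which tests whether TAK-418 acted differently in mutants and wild types, gave no field gene at an adjusted p or at an unadjusted p under 0.05. The shares of all genes were 0.00603% and 4.45%. Wfs1 gave -0.08 ± 0.12, so its lower level after TAK-418 in the 2 genotypes differed by less than its error. Fibcd1 gave -0.16 ± 0.09 and Bok -0.10 ± 0.09. The TAK-418 differences of Fibcd1, 0.17 in wild types and 0.02 in mutants, were therefore not shown to differ.

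**Figure D4:**
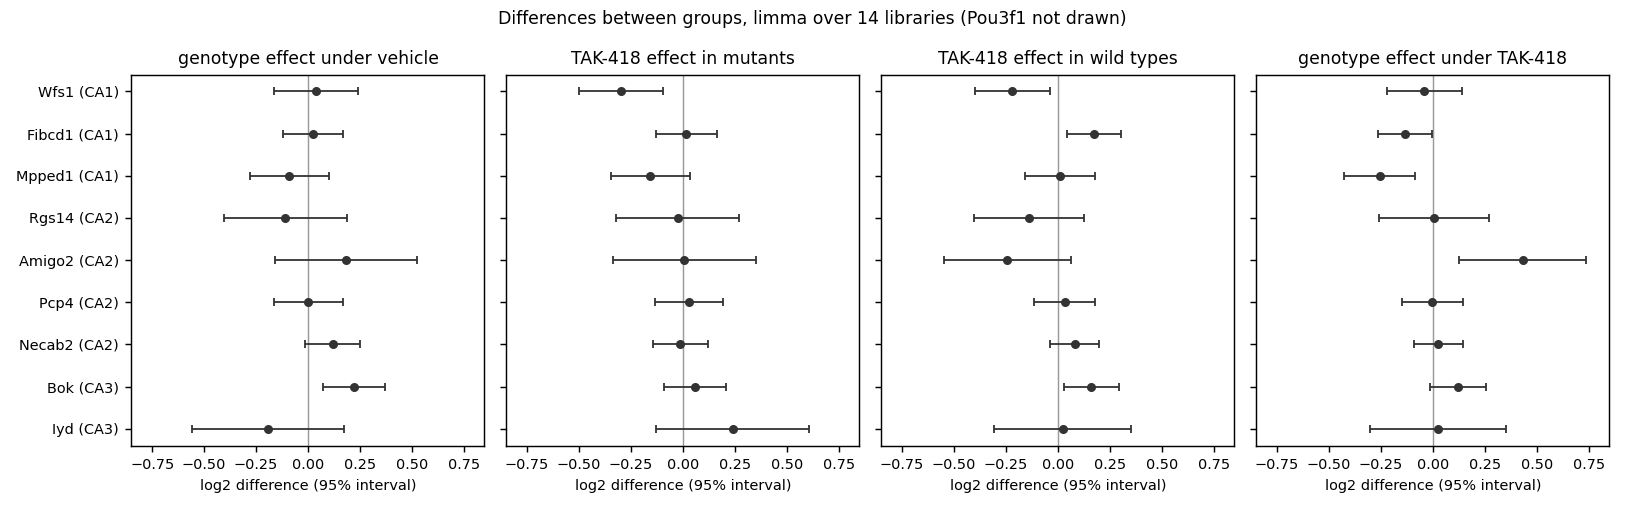
Log2 difference (point) and 95% interval (bar) from limma for 9 field genes in 4 contrasts; Pou3f1 is not drawn. Intervals leave 0 for Bok under vehicle, Wfs1 in mutants, Wfs1, Fibcd1 and Bok in wild types, and Fibcd1, Mpped1 and Amigo2 under TAK-418, and no gene passed the adjusted threshold.

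The authors' deposited tables gave one FPKM per group from the same libraries and therefore no independent check. Each of the 4 tables sets mutants against wild types, 2 of them with a difference in treatment as well, and none is between TAK-418 and vehicle within a genotype. For Wfs1 the FPKM was 37.4 in wild-type and 38.4 in mutant vehicle mice, and 31.6 in wild-type and 30.8 in mutant TAK-418 mice. Its p-value in the authors' deposited table was 0.00085, with q = 0.113, for mutant vehicle against wild-type TAK-418, and 0.01065, with q = 0.417, for mutant TAK-418 against wild-type vehicle. For Bok the FPKM was 48.7, 57.0, 55.3 and 60.9 in the same order of groups, and the authors' lowest q for it was 0.336. For Amigo2, whose locus reaches past the gene, the FPKM was 12.8 in wild-type and 16.4 in mutant vehicle mice (q = 0.468). With TAK-418 it was 13.9 in wild types and 15.0 in mutants, a log2 fold change of 0.11 (q = 0.808). The treated wild types thus stood above the vehicle wild types, while the library values gave a log2 difference of -0.24. No field gene was called in the authors' deposited tables, where a q under 0.05 was reached by 0.224% of the tested loci for mutant against wild-type vehicle, 0.218% for mutant against wild-type TAK-418, 0.611% for mutant vehicle against wild-type TAK-418 and 0.324% for mutant TAK-418 against wild-type vehicle.

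Genes of 1 field had little in common from library to library. Across the 14 libraries, the 13 pairs of genes within a field had a median Pearson r of 0.03 (range -0.52 to 0.46) and the 32 pairs from different fields a median of 0.0036 (-0.48 to 0.76). The lowest r within a field was between the CA1 genes Wfs1 and Fibcd1, at -0.52 (Spearman rho = -0.49), and the highest of all was between Necab2 of CA2 and Bok of CA3, at 0.76 (rho = 0.75). These are descriptions, since the points share the libraries, their depth and the scaling between them. Amigo2 entered the pairs with its annotated-donor form only, and Rgs14 with its pieces summed.

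**Figure D5:**
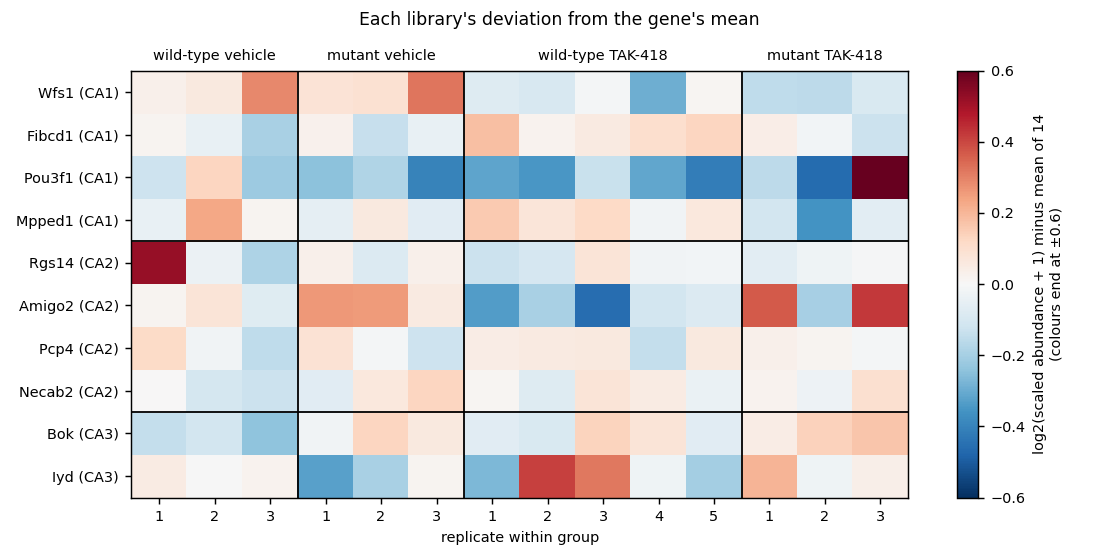
Deviation of log2(scaled abundance + 1) from each gene's mean over the 14 libraries (colour), with genes in rows by field and libraries in columns by group. The rows of 1 field do not share a pattern, and single dark cells mark Rgs14 in wild-type vehicle replicate 1 and Pou3f1 in mutant TAK-418 replicate 3.

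Each field was also given a score, the mean log2 deviation of its genes from their means over the 14 libraries. Amigo2 entered with its annotated-donor form only and Rgs14 with its pieces summed, and other counts were not tried. For CA2 the score was 0.0034 ± 0.15 (SD) in wild-type vehicle, 0.05 ± 0.03 in mutant vehicle, -0.06 ± 0.03 in wild-type TAK-418 and 0.05 ± 0.10 in mutant TAK-418 libraries. It was highest, at 0.16, in wild-type vehicle replicate 1, where the summed Rgs14 pieces stood apart. For CA3 the score was -0.07 ± 0.03, -0.06 ± 0.11, 0.02 ± 0.17 and 0.09 ± 0.03. For CA1 it was 0.01 ± 0.07, -0.05 ± 0.0032, -0.06 ± 0.06 and 0.13 ± 0.52, with the treated mutants highest through the 1 high Pou3f1 value. Without Pou3f1, a choice made after that value was seen, it was 0.04 ± 0.04, 0.03 ± 0.04, 0.03 ± 0.07 and -0.12 ± 0.05, with the treated mutants lowest; in them Wfs1 and Mpped1 lay below their mean over 14 libraries in every library. Of 9824 other genes, those most like the CA2 score were Tmem69 (r = 0.839), Actr3 (0.838) and Abracl (0.831), and those most like the CA3 score Rnf126 (0.846), Usp30 (0.836) and St7 (0.803). The CA1 score was led by Paics (0.903), Fcho2 (0.892) and Ncdn (0.840), with a rho of 0.587, 0.262 and 0.182. That score was 0.73 in mutant TAK-418 replicate 3, the library with the high Pou3f1 value, and no higher than 0.09 elsewhere. Without Pou3f1 the leading genes were Peli1 (0.855), Zfp623 (0.835) and Spats2l (0.824). All of these are the highest of 9824 values of r over only 14 libraries. A search of that size yields high r among unrelated genes too, so the named genes are a description only.

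Further genes known for CA2 and CA3 were listed beside the 10. Of 7 other CA2 genes, 6 were tested, since Avpr1b was listed at 0 in 13 libraries. All 6 had a positive log2 difference for genotype under vehicle (median 0.29, against 0 for all genes), 1 at an unadjusted p under 0.05, where 5.47% of all genes were, and none past the adjusted threshold. The sum of these CA2 genes was highest in wild-type vehicle replicate 3 (49.8) and mutant vehicle replicate 1 (49.3), the same libraries in which the choroid plexus genes were highest, and the part of that tissue in the list's values was not tested. Of 5 other CA3 genes, 3 had a positive and 2 a negative log2 difference for genotype under vehicle, with a median of 0.08 and none at an unadjusted p under 0.05.

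Markers of other cells in the tissue were read for the same libraries. The summed level of the 8 dentate granule cell genes was 217.1 to 251.3 in wild-type vehicle, 228.4 to 237.6 in mutant vehicle, 247.2 to 260.2 in wild-type TAK-418 and 252.6 to 254.7 in mutant TAK-418 libraries, so the treated mutants lay above the vehicle mutants while the wild-type ranges met. In wild types 5 of the 8 had a positive TAK-418 difference at an unadjusted p under 0.05, where 8.46% of all genes passed in either direction, and none passed the adjusted threshold (lowest adjusted p = 0.194 in limma). Its part in the Wfs1 difference was not tested. The 4 pyramidal neuron genes summed to 1915 to 1968 in wild-type vehicle and to 1969.7 to 2196 in wild-type TAK-418 libraries, and to 1994 to 2132 and 1908 to 2057 in vehicle and treated mutants. In wild types 2 of the 4 had a positive TAK-418 difference (median -0.0041). At an unadjusted p under 0.05 in limma there was 1 of them, against 8.46% of all genes, and none passed the adjusted threshold. The 8 subiculum and neocortex genes summed to 84.7 to 118.7 in wild-type and 71.8 to 76.6 in mutant vehicle libraries, without overlap, and to 78.4 to 91.8 and 75.5 to 82.5 after TAK-418. Under vehicle 1 of the 8 had a positive and 7 a negative genotype difference (median -0.26), 3 at an unadjusted p under 0.05, against 5.47% of all genes, and none past the adjusted threshold. The part of these regions in the genotype differences of the field genes, such as that of Bok, was not tested. Of 8 thalamus and habenula genes, Gbx2 and Pou4f1 were listed at 0 in all 14 libraries, and the sum of the list stayed between 25.5 and 31.2.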

How the data were processed

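Transcripts were assembled in each library with CLASS 2.1.7, per the file headers, and TopHat2 2.1.0, FastQC and build mm10 are named in the submitters' processing notes. Per the labels' protocols, NEBNext Ultra and Ultra II kits were both used, and which library had which is not given in the sources used here. The abundance the authors deposited per transcript is a score whose scale is not stated; it behaved as a value per transcript length. The authors' deposited tables, in Cuffdiff's column layout, give 1 FPKM value per group pooled over its libraries, a log2 fold change, and a p-value with its q-value, per the file headers.

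Transcripts were assigned to GENCODE M21 genes (GRCm38) by a shared intron, or by overlap for single-exon transcripts of any gene, and added up per gene. Scaling between libraries used the median of ratios (factors 0.845 to 1.06). The 16580 genes seen in 3 or more libraries entered limma 3.58.1 in R 4.3.3 as log2(value + 1), all 4 groups in 1 fit, with Benjamini-Hochberg adjustment over all genes at 0.05; the pseudocount of 1 understates changes of low genes. The fit was also run on simulated data, with changes larger than the differences found here for any field gene but Pou3f1. That run does not show whether differences of the size found here would be detected. Low values were whole multiples of 1 step, within a tolerance of 0.05, for 93.07% to 98.33% of values in a library, which gave relative depth.

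The 10 genes and the other lists were chosen with earlier results of these data known. By rule, the 10 genes were described in every library, other lists by counts and medians, and each field by the 3 other genes with the highest Pearson r with its score (a value in all 14 libraries, mean of at least 5). A list of other CA1 genes is not reported here. Alternatives covered scaling, pseudocount, filter, assignment, gene value, the fit and leaving out each library.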

Additional observations from a re-analysis of the deposited data

Results flagged for a closer look

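Pcp4 in wild-type TAK-418 replicate 4 stood at 167.2 on the scaled abundance, while the other 4 treated wild types lay between 190.2 and 192.5. The gap was wide for a group of 5, by Dixon's criterion, which chance meets in about 1 of 20 groups. The criterion was applied in this group to every field gene, and to Amigo2 by exon overlap as well, so 1 such flag is not unusual. The value lies within the range of the 3 vehicle wild types, 166.2 to 200.2.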

How the results depend on the processing

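No field gene passed the adjusted threshold under any alternative run: 26 settings for the 4 contrasts of 2 groups, and 1 fewer for the 2 averages and the interaction, which need all groups. Over these the lowest adjusted p in limma was 0.194, against 0.327 as reported. Over all genes the number called ranged from 0 to 16 across settings and contrasts. Of 796 alternative values for 31 log2 differences, 780 kept their sign and 16 did not. The Wfs1 difference for TAK-418 averaged over genotypes ran from -0.31 to -0.20, and the Bok difference for genotype under vehicle from 0.13 to 0.26. Signs turned for Wfs1 under vehicle with no scaling (-0.0499), for the Wfs1 interaction with the highest transcript alone (0.0320), for Rgs14 in wild types with the highest transcript alone (0.17), for Amigo2 in mutants with exon overlap (-0.16), and with abundance times length for Fibcd1 in mutants (-0.0013) and Iyd under vehicle (0.0142); the cause was not tested. Leaving out each library in turn gave -0.0403 to 0.12 for Wfs1 under vehicle, -0.0262 to 0.0634 for Fibcd1 in mutants, -0.28 to 0.0716 for Rgs14 in wild types and -0.11 to 0.21 for Amigo2 in mutants. For Pou3f1 it gave -0.0329 to 1.79 in mutants and -0.0048 to 1.82 for genotype under TAK-418, the low ends without mutant TAK-418 replicate 3. An alternative added after seeing the data, the CA1 score without Pou3f1, moved its highest r from 0.903 to 0.855. Pou3f1 has no value when only multi-exon transcripts are used. What depth limits was not tested for single genes. No paired analysis was possible because the labels give the libraries no replicate numbers; those used here follow the order of deposit and pair nothing.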
